A study of Mus musculus with 48 samples.

Results

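The transcripts described here are 8 long noncoding RNAs that are known from the nucleus: Neat1, Malat1, Tug1, Pvt1, Firre, Kcnq1ot1, Lncenc1 and Mir17hg. They were chosen by name, and each symbol matched 1 Ensembl gene, so that they make up 8 of the 55335 genes in the expression table. All 8 passed the filter on low values in every comparison, with at least 116 reads per gene in every RNA-seq library. The study asked what NRDE2 does in mammalian cells, and it profiled RNA in mouse embryonic stem cells (mESCs) after loss of MTREX, NRDE2 or CCDC174. It holds 28 RNA-seq libraries in 14 groups of 2 and 4 ribosome profiling (Ribo-seq) libraries of Nrde2WT and Nrde2KO, 2 each. Reads in genes numbered 28683644 to 36272309 per RNA-seq library.

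All cells derived from parental male mESC lines of mixed 129 and C57BL/6 background that carry a tamoxifen-inducible Cre recombinase at Rosa26, in some of them together with the biotin ligase BirA, and the labels do not say which group came from which. All were cultured in serum, LIF and 2i. MtrexKO cells were conditional Mtrex knockout cells given 100 nM 4-hydroxytamoxifen for 3 d, and MtrexWT cells were the same conditional line without the drug. Nrde2KO cells received 100 nM 4-hydroxytamoxifen for 4 d, with the undrugged conditional line as Nrde2WT. Nrde2d200 cells expressed NRDE2 without its N-terminal 200 amino acids and Nrde2D174R cells expressed NRDE2 with a point mutation, and neither group was given the drug. In Ccdc174dTAG cells, CCDC174 fused to the FKBP12F36V degron was depleted with 500 nM dTAG-13 for 24 h, and Ccdc174WT cells carried the same fusion without dTAG-13, so these controls are not unmodified cells. A second Nrde2 experiment and the Ccdc174 experiment were each run without and with cycloheximide (CHX, an inhibitor of translation elongation) at 0.1 mg/ml for 4 h. The labels name no separate clone or culture behind a replicate number, so the spread behind the p-values may be technical. That spread is the one between the 2 libraries of a group, estimated for each gene over all groups of a fit together. A group with a wider spread than the others is thus not given a larger standard error. 4-hydroxytamoxifen and dTAG-13 were given only to cells made to lose the protein. Effects of drug exposure or of active Cre therefore cannot be told apart from the loss itself. In all bulk comparisons below, a change in the share of cells that express a transcript and a change in its level per cell cannot be told apart.

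MTREX is the RNA helicase that feeds RNA to the nuclear exosome, the 3′ to 5′ nuclease complex that removes many noncoding transcripts, upstream antisense RNAs and processing by-products. Long noncoding RNAs that stay in the nucleus fall into several kinds with different ends and lifetimes. Neat1 is the scaffold of paraspeckles and Malat1 is concentrated in nuclear speckles, and both are cut at the 3′ end by RNase P ahead of a tRNA-like structure, after which the longer Neat1 isoform and Malat1 end in a stabilising triple helix in place of a poly(A) tail. Kcnq1ot1 is an imprinted antisense transcript that silences its neighbours in cis, Firre is an X-linked RNA of interspersed repeats that shapes nuclear architecture, Tug1 and Pvt1 are spliced transcripts (Pvt1 lies next to Myc), Lncenc1 is abundant in naive mESCs, and Mir17hg is the primary transcript of the miR-17-92 cluster, which is cut by Drosha in the nucleus.

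In the GENCODE mouse annotation on GRCm38, Neat1 (ENSMUSG00000092274) spans chr19:5824708-5845478 and Malat1 (ENSMUSG00000092341) chr19:5795690-5802672, both on the minus strand and each covered from end to end by exonic sequence. The sequences at their 3′ ends are shown because they are what the pair shares apart from location. Within windows that ran from 400 bases before to 100 bases after the annotated 3′ end, runs of at least 9 identical letters were found, and 4 such runs lay in the same order in both genes. Each sequence below reads 5′ to 3′ on the gene's strand of GRCm38.p6 (RefSeq) with 10 bases on either side, and capitals mark the 4 runs.
Malat1, chr19:5795921-5796075, minus strand: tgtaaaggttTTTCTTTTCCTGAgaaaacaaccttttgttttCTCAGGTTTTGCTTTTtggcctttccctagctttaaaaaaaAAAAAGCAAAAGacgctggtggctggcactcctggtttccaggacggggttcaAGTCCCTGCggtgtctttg
Neat1, chr19:5824648-5824807, minus strand: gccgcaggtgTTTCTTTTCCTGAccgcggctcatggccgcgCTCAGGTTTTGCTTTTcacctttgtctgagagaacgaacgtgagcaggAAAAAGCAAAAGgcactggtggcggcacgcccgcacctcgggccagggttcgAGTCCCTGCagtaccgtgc
The spaces between successive runs were 19, 25 and 41 bases in Malat1 and 18, 32 and 40 bases in Neat1. The third run ended 1 base past the annotated 3′ end of Neat1 and 291 bases before that of Malat1, so the GENCODE model of Malat1 extends past this stretch. All 4 runs together were found on the gene strand in 3 of 55413 gene windows (0.00541%): Malat1, Neat1 and Gm27702, a small RNA gene that adjoins Neat1. These are matches of letters and no measurement of processing.

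The other long transcripts lie on separate chromosomes. Tug1 (ENSMUSG00000056579) spans chr11:3639785-3649673 on the minus strand, with 483 exonic bases opposite Morc2a. Pvt1 (ENSMUSG00000097039) spans chr15:62037986-62378096 on the plus strand, and Firre (ENSMUSG00000085396) chrX:50555744-50635321 on the minus strand. Kcnq1ot1 (ENSMUSG00000101609) is a single block of 93092 bases at chr7:143203458-143296549, minus strand, that lies inside the Kcnq1 locus. Lncenc1 (ENSMUSG00000078952) spans chr13:97434970-97497007 and Mir17hg (ENSMUSG00000089726) chr14:115042879-115046727, both on the plus strand. Libraries were stranded and counted by strand, so reads of Morc2a and Kcnq1 were kept apart from Tug1 and Kcnq1ot1.

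Mir17hg contains 6 miRNA hairpins within 836 bases (chr14:115043671-115044506, GRCm38.p6). The mature miRNAs are shown because they are the product for which this transcript is processed. Capitals mark the seed (bases 2 to 8), the part that pairs with targets, and the sequences are those of RefSeq.
mmu-miR-17-5p: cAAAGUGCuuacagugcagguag
mmu-miR-20a-5p: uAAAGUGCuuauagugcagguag
mmu-miR-18a-5p: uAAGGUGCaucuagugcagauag
mmu-miR-19a-3p: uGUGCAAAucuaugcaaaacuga
mmu-miR-19b-3p: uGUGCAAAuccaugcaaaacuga
mmu-miR-92a-3p: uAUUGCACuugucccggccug
The 6 miRNAs carry 4 seeds: miR-17-5p shares its seed with miR-20a-5p, and miR-19a-3p shares its seed with miR-19b-3p. The mature miRNAs were not measured here. The 6 hairpin genes had 0 reads in every RNA-seq library, but they lie within exons of Mir17hg on the same strand. For gene counts of its wild-type samples, the paper names a setting that leaves out reads overlapping several genes. With such a setting, reads in a hairpin are given to neither gene, so the 0 reads cannot show whether hairpin RNA was present. All values of Mir17hg below are reads assigned to the host gene.

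Levels are given as normalized CPM: reads of a gene as the authors scaled them to a common library total, further divided by a factor that sets the median gene of each library level (median of ratios). Comparing genes with each other needs a correction for length, and per kilobase of exon Malat1 was the most abundant of the 8 in each of the 4 untreated wild-type groups, with group means of 243 to 327 normalized CPM per kb. Lncenc1 came next, with 45.2 to 79.4 normalized CPM per kb, followed by Tug1 with 12.2 to 14.4. Kcnq1ot1 was the lowest in each, with 0.894 to 1.42 normalized CPM per kb averaged over its 93092 bases. Firre and Mir17hg changed places between the 4 groups, at 4.07 to 7.32 and 5.83 to 10.3 normalized CPM per kb.

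Over the 14 RNA-seq groups the transcripts differed widely in range. The highest group mean of Neat1 was 53.6 times its lowest, the widest range of the 8, from 612 in MtrexKO to 11.4 normalized CPM in CHX-treated Ccdc174dTAG cells. Mir17hg followed with 13.6 times, Lncenc1 with 5.02, Kcnq1ot1 with 4.86, Malat1 with 3.88, Pvt1 with 3.27, Tug1 with 2.7 and Firre with 2.41 times. MtrexKO held the highest mean for 5 transcripts (Neat1, Malat1, Tug1, Pvt1 and Kcnq1ot1). For Neat1, Tug1 and Pvt1 the libraries of MtrexKO did not overlap with those of the next group in the order, while for Malat1 and Kcnq1ot1 they did. The shares of all genes with their highest mean in MtrexKO, or with such a separation, were not counted. When groups were ordered by mean, between 7 (Pvt1) and 11 (Kcnq1ot1) of the 13 pairs of neighbours overlapped in their libraries, so most neighbouring positions did not differ beyond the spread of 2 libraries.

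**Figure D1:**
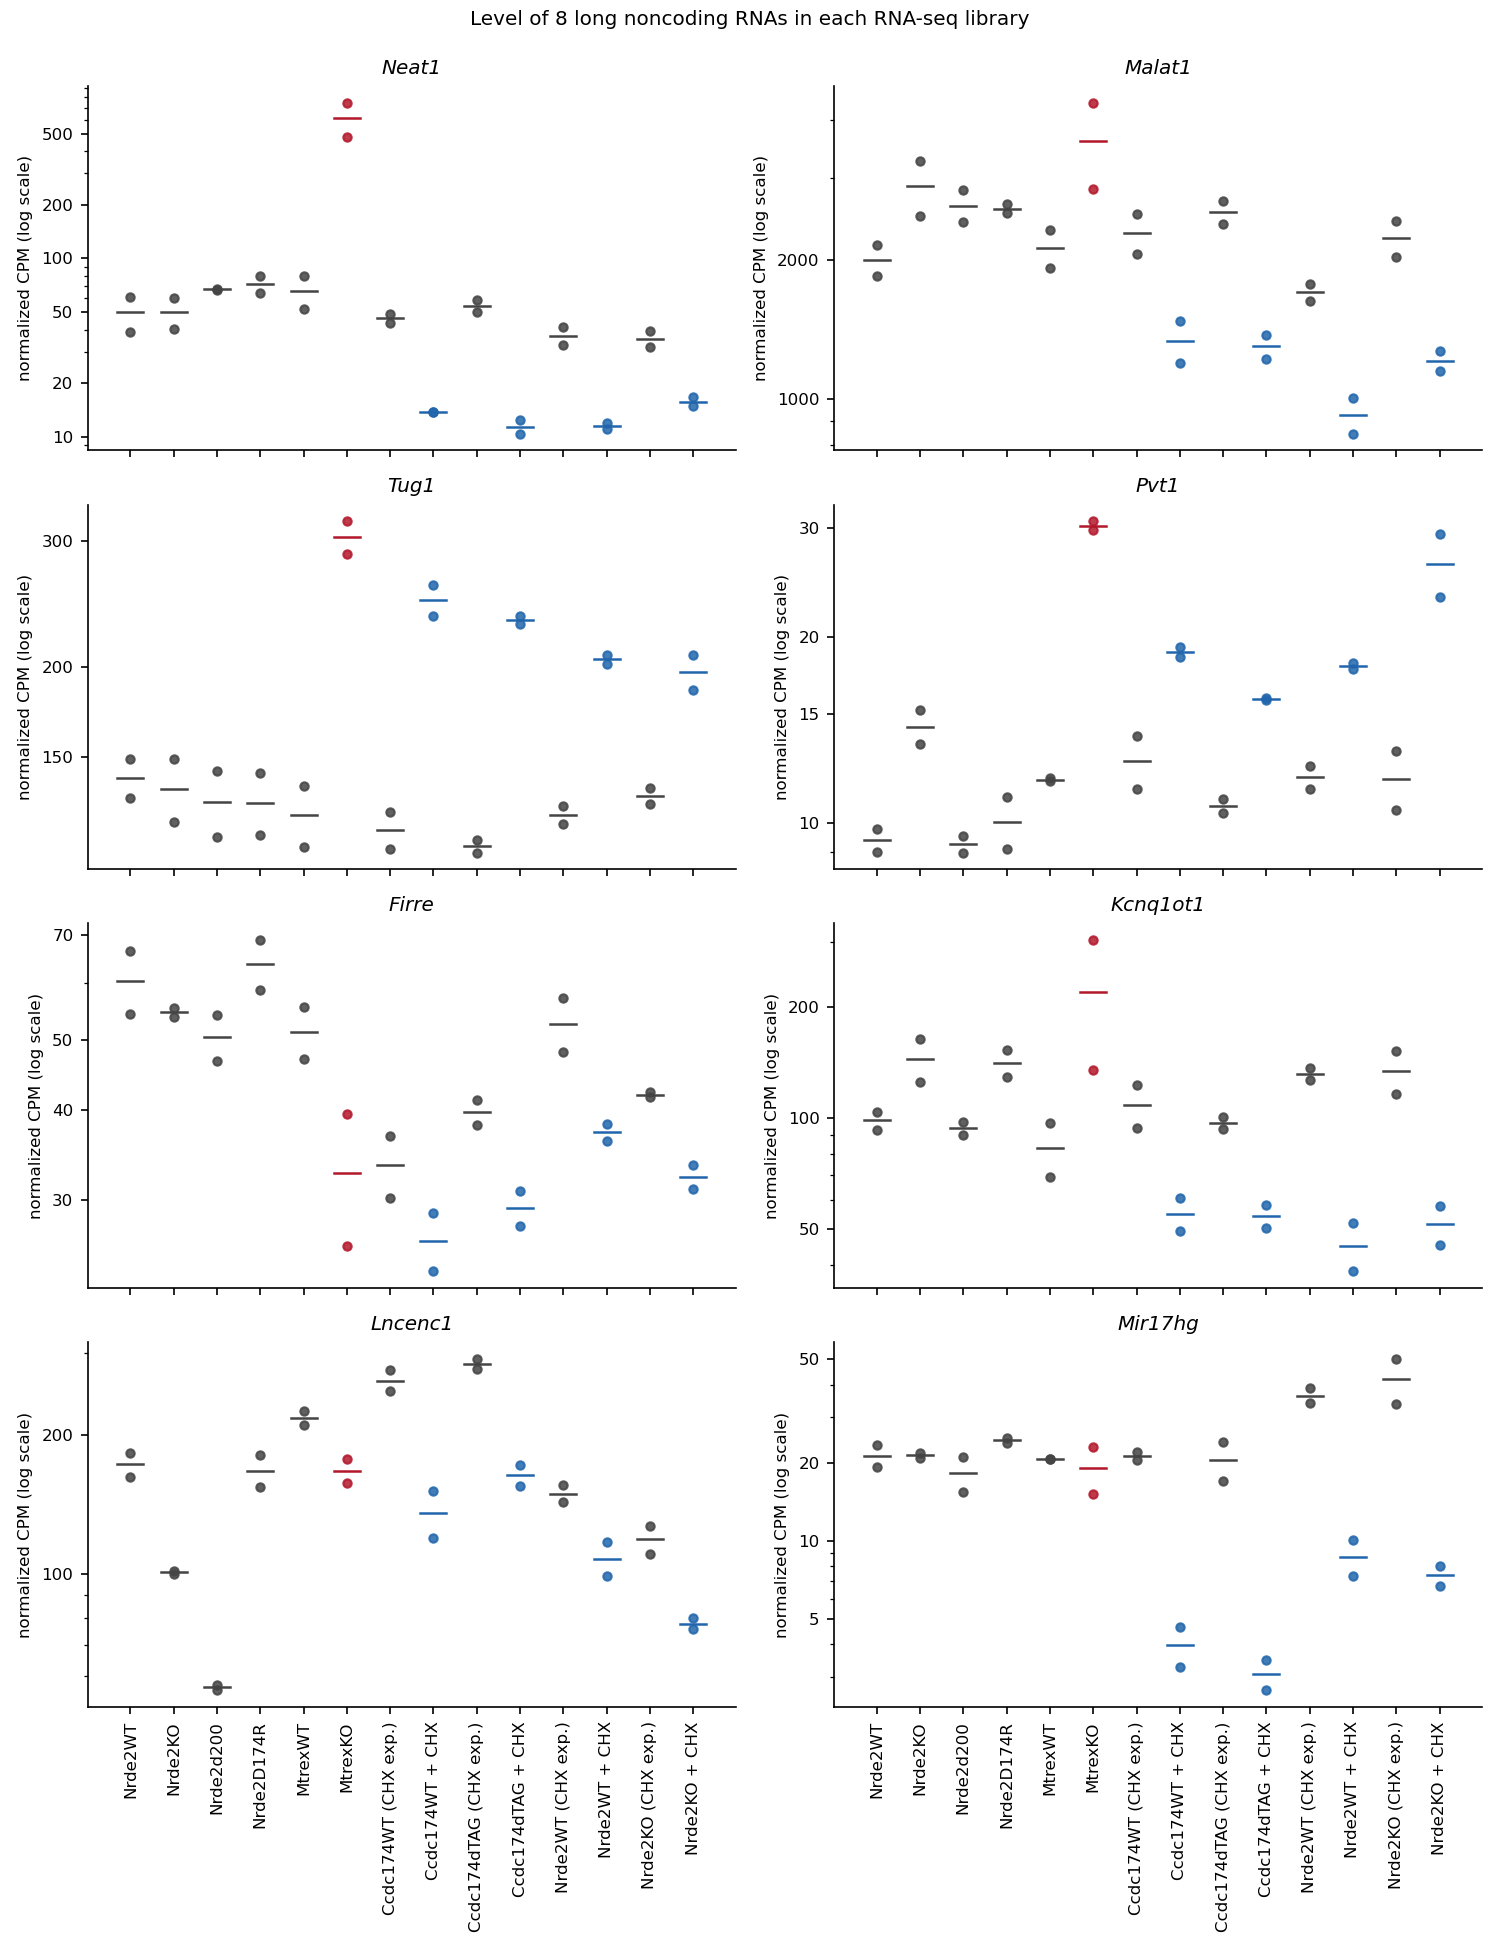
Level of each transcript in the 28 RNA-seq libraries (1 panel per transcript, normalized CPM on a log axis, points are single libraries, bars are the means of 2). MtrexKO is red, CHX-treated groups are blue and the others grey. Neat1 lies at 747 and 478 in MtrexKO and between 10.4 and 16.7 in the 8 CHX-treated libraries, and Mir17hg is lowest in the CHX-treated groups.

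Loss of MTREX was the first comparison. Neat1, Pvt1, Kcnq1ot1 and Tug1 rose, Neat1 by 9.21-fold and the other three by 2.45- to 2.54-fold, and none of the 8 fell past the threshold. A gene was called changed at an adjusted p below 0.01 (limma with Benjamini-Hochberg adjustment over 14889 genes) and a log2 fold change beyond 1 in size, and 15.8% of all genes tested were called higher and 10.9% lower. The median log2 fold change was 1.01 over the 8 transcripts and 0.00 over all genes. Among the 794 genes of the long noncoding classes of GENCODE, however, 422 (53.1%) were called higher and 39 (4.91%) lower, with a median log2 fold change of 1.17, so that 4 of 8 is near the share of long noncoding RNA genes in general. Protein-coding genes had 13% called higher and 11.5% lower.

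The targeted transcript itself was lower, with Mtrex mRNA at 118 and 111 normalized CPM in MtrexWT and 46.2 and 41.3 in MtrexKO (log2 fold change −1.39 ± 0.09 SE, limma adjusted p = 8.55e-10). RNA that remains may come from outside the deleted part or from cells without recombination, which the gene-level values do not separate.

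Neat1 was at 79.9 and 52.3 normalized CPM in the 2 MtrexWT libraries and at 747 and 478 in the 2 MtrexKO libraries. Every MtrexKO library was thus far above every MtrexWT library, and the log2 fold change was 3.20 ± 0.24 (SE, limma adjusted p = 4.67e-09), the 327th highest of 14889 genes. Neat1 carried 21525 and 13846 reads in the MtrexKO libraries, so counting error was small beside the difference between the 2 libraries of a group. All values of Neat1 are for the whole gene, with 4 annotated transcripts over 1 block of 20771 bases. Its short and long isoforms were therefore not told apart in any comparison.

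Malat1, which shares the 3′ elements shown above, was at 2320.2 and 1913 normalized CPM in MtrexWT and at 4352 and 2836 in MtrexKO. Its groups did not overlap, but the log2 fold change of 0.74 ± 0.18 (SE, limma adjusted p = 0.00165) did not reach 1. Within the MtrexKO group replicate 1 was the higher library for every transcript of the 8 except Pvt1. On CPM as deposited replicate 1 was the lower library for Tug1 (219 against 240) and Lncenc1 (121 against 131) as well. Reads in genes were 72.1% of the total in MtrexKO replicate 1, the lowest of the RNA-seq libraries, and 82.7% in replicate 2.

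Kcnq1ot1 was at 97.2 and 69.3 normalized CPM in MtrexWT against 304 and 135 in MtrexKO, with a log2 fold change of 1.30 ± 0.26 (SE, limma adjusted p = 0.000267). The 2 MtrexKO libraries differed from each other by more than the higher MtrexWT library and the lower MtrexKO library did, and the call rested on replicate 1: without it the log2 fold change was 0.72 (limma adjusted p = 0.00482). Fitted on the 4 Mtrex libraries alone the adjusted p was 0.0266.

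Tug1 was at 137 and 112 normalized CPM in MtrexWT and at 319 and 288 in MtrexKO (log2 fold change 1.29 ± 0.13 SE, limma adjusted p = 1.19e-07). Both MtrexKO libraries stood well apart from both controls. Pvt1 was at 11.8 and 11.7 normalized CPM in MtrexWT and at 29.8 and 30.8 in MtrexKO (log2 fold change 1.34 ± 0.14 SE, limma adjusted p = 1.55e-07). Morc2a, the gene opposite Tug1, was at 142 and 148 normalized CPM in MtrexWT and 115 and 105 in MtrexKO, the other direction from Tug1.

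Firre, Lncenc1 and Mir17hg were not called. Firre was at 55.6 and 47.1 normalized CPM in MtrexWT and 39.5 and 25.9 in MtrexKO, groups that did not overlap, with a log2 fold change of −0.67 ± 0.16 (SE, limma adjusted p = 0.00153). Lncenc1 was at 209 and 225 in MtrexWT and 177 and 157 in MtrexKO (log2 fold change −0.38 ± 0.10 SE, limma adjusted p = 0.00292). Mir17hg, whose Mtrex groups overlapped, was at 20.6 in both MtrexWT libraries and at 23 and 15.1 in MtrexKO. Its log2 fold change was −0.14 ± 0.21 (SE, limma adjusted p = 0.56), and the sign turned when MtrexKO replicate 2 was left out (0.17).

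The scaling of the libraries bears on these calls. Gm26917, a noncoding gene, took 11.99% and 7.35% of all reads in the 2 MtrexKO libraries against 2.86% and 2.82% in MtrexWT. Without these factors the median gene was at −0.38 on the log2 scale, only Neat1 and Firre were called (Neat1 at 2.81 and Firre at −1.07), and 34.1% of all calls were higher against 59.3% with the factors and 48.9% with TMM factors. Relative to that median, Neat1 was at 3.19, Pvt1 at 1.33, Kcnq1ot1 at 1.28, Tug1 at 1.27 and Firre at −0.69. The factors set the median gene level, so taking off that median makes nearly the same correction and is no separate check. With TMM factors the median gene in MtrexKO was at −0.15.

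**Figure D2:**
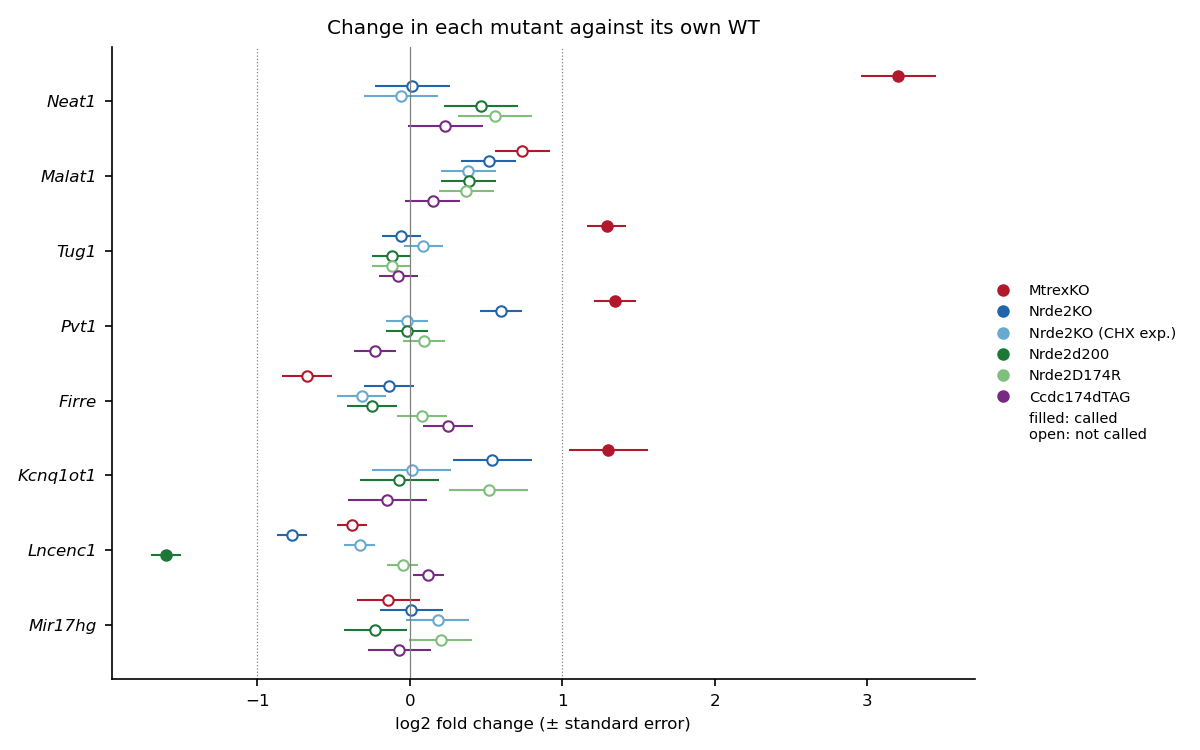
log2 fold change (limma, bars are standard errors, filled points are called) of the 8 transcripts in each of 6 mutant groups against its own control without CHX. MtrexKO holds the 4 values above the threshold of 1, from 1.29 for Tug1 to 3.20 for Neat1, and Nrde2d200 holds the 1 value below −1, Lncenc1 at −1.60.

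**Figure D3:**
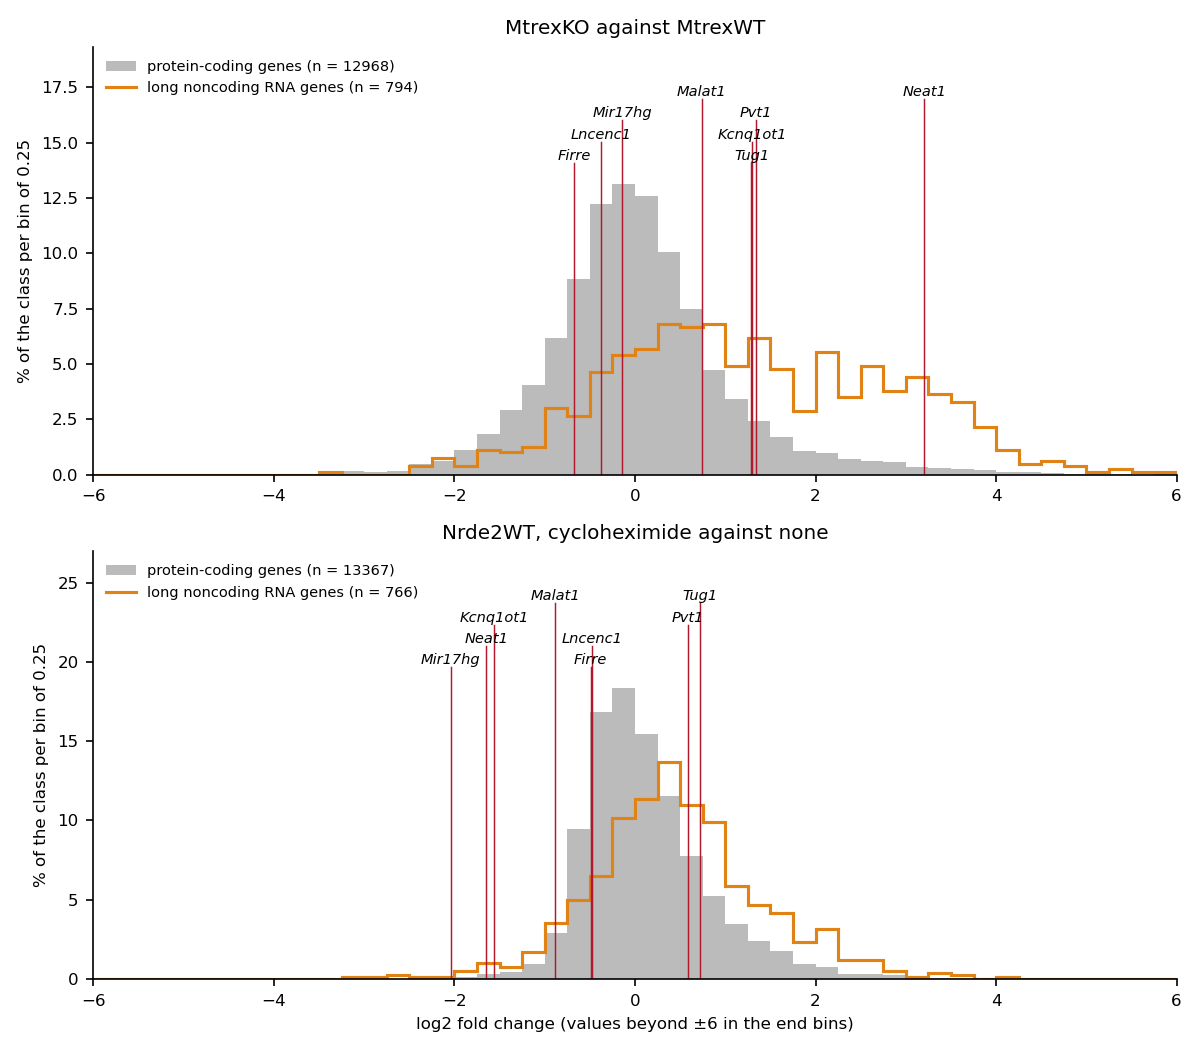
Distribution of log2 fold changes of long noncoding RNA genes and protein-coding genes in MtrexKO and under CHX in Nrde2WT cells, with the 8 transcripts marked. In MtrexKO the long noncoding class has a median of 1.17 and coding genes of −0.04, and under CHX Neat1, Kcnq1ot1 and Mir17hg lie in the lower tail.

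Genes with a known relation to the 8 transcripts were examined as lists, described by counts beside the background of 15.8% higher and 10.9% lower. Of 32 other named long noncoding RNAs, 23 were tested and 8 rose and 2 fell in MtrexKO, with a median log2 fold change of 0.52. Xist, which coats the inactive X chromosome, was at 0.0272 and 0.142 normalized CPM in MtrexWT and 43.6 and 3.35 in MtrexKO. Its antisense partner Tsix went from 8.21 and 8.16 to 65.1 and 67.5, the imprinted H19 from 13.9 and 32.1 to 295 and 517, and Lncpint from 0.68 and 0.481 to 9.75 and 4.9. All 4 were called higher, with log2 fold changes of 5.25, 2.98, 4.19 and 3.12, and Xist differed most between the 2 MtrexKO libraries. Gas5 and Snhg1, hosts of small nucleolar RNAs, were at 0.31 and 0.33 and were not called.

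Of 24 tested genes for the nuclear exosome and its adaptors, 1 rose and 3 fell (median log2 fold change −0.21). Zfc3h1, a scaffold that links MTREX to polyadenylated RNA, rose by 1.25 on the log2 scale. Exosc7 and Exosc8, subunits of the exosome ring, had log2 fold changes of −1.23 and −1.07, and Mtrex was the remaining gene called lower. Of 18 tested paraspeckle proteins 1 was called higher and 1 lower, the latter Dazap1 (−1.22), while Sfpq and Hnrnpk were at −0.02 and −0.16. For RNase P and speckle proteins 1 of 18 rose (Srrm2, a speckle core protein, 1.08) and 1 fell (Rpp25, an RNase P subunit, −1.09).

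Of the 9 tested genes of the Kcnq1 domain, the imprinted region around Kcnq1ot1, 5 rose in MtrexKO and none fell, with a median log2 fold change of 1.33. Which of these genes Kcnq1ot1 silences in mESCs was not tested. Cdkn1c, an inhibitor of cyclin-dependent kinases, went from 2.07 and 1.78 normalized CPM in MtrexWT to 14.5 and 21.2 in MtrexKO, with a log2 fold change of 3.04. Ascl2, a factor of the trophoblast lineage, went from 0.897 and 0.623 to 14.9 and 5.9 (3.27), and Osbpl5 and Tspan32 were called at 2.51 and 2.20. The tetraspanin Cd81 was the remaining gene called, at 1.33. Nap1l4 at −0.24 and Tssc4 at 0.83 were not called.

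Of 7 tested neighbours of the other transcripts, Gpc4 rose (2.37) and Ltbp3, which lies near Neat1 and Malat1, was called lower (−1.32). For miR-17-92 processing 0 of 9 rose and 1 fell (E2f3, a transcription factor, −1.11). For 8 genes reported as miR-17-92 targets, Tgfbr2 (1.76) and Rbl2 (1.09) rose and none fell, while Cdkn1a was at 0.57.

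Markers of cell types were compared in the same libraries. All 10 mESC markers had reads in every group, and their summed level was 6308 to 6552 normalized CPM in MtrexWT and 4710.1 to 5716 in MtrexKO. Of these 10 only Nanog was called, lower at −1.03. Markers of 2-cell-like cells, a rare state in mESC cultures, summed to 4.76 to 14.6 in MtrexWT and 103 to 289 in MtrexKO, and 7 of 7 tested were called higher. Trophectoderm markers summed to 85.3 to 120 and 485 to 505, with Krt18, Krt8 and Cdx2 called higher (3.89, 2.18 and 1.58) of 5 tested. Primitive endoderm markers summed to 10.6 and 11.0 in the MtrexWT libraries and to 14.5 and 16.1 in MtrexKO, and of 4 tested only Gata6 was called (higher, 3.01). Fibroblast markers were low, with sums of 15.8 to 16 in MtrexWT and 4.45 to 4.86 in MtrexKO, and of 3 tested 1 was called higher and 2 lower. The part of these cell states in the values of the 8 transcripts was not tested.

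The Nrde2 transcript was lower in the libraries labelled Nrde2KO without CHX, at 19.2 and 20.3 normalized CPM against 41.3 and 40.3 in Nrde2WT (log2 fold change −1.04, limma adjusted p = 3.54e-07). In the second Nrde2 experiment it was at 19.8 and 19.6 against 53.3 and 51.9 without CHX (−1.405, limma adjusted p = 1.6e-08). With CHX it was at 257 and 249 in the libraries labelled Nrde2KO and at 242 and 224 in Nrde2WT (0.12, limma adjusted p = 0.121), so with CHX this transcript did not mark the labelled knockout. The 2-cell-like markers did stand apart in these same libraries, with sums of 55.7 to 61.6 in those labelled Nrde2KO with CHX and 5.12 to 5.24 in Nrde2WT with CHX, and 6 of 6 tested were called higher.

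Loss of NRDE2 was compared with the same transcripts, and none of the 8 was called in Nrde2KO by limma, against 3.02% of all genes higher and 1.98% lower (6161 of 14889 genes had an unadjusted p below 0.05, and edgeR and DESeq2 called none of the 8 either). Lncenc1 came closest. It was at 183 and 162 normalized CPM in Nrde2WT and at 102 and 99.6 in Nrde2KO, with a log2 fold change of −0.77 ± 0.10 (SE, limma adjusted p = 2.09e-05). Pvt1 was at 9.79 and 8.99 in Nrde2WT and 15.2 and 13.4 in Nrde2KO, with a log2 fold change of 0.60 ± 0.14 (SE, limma adjusted p = 0.00325). Both pairs of groups were separate. Neat1 gave no such separation, with 61.1 and 38.7 in Nrde2WT and 60.3 and 40.1 in Nrde2KO (log2 fold change 0.02 ± 0.24 SE, limma adjusted p = 0.971).

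The second Nrde2 experiment, which had its own controls, gave a log2 fold change of −0.33 ± 0.10 (SE, limma adjusted p = 0.0185) for Lncenc1 without CHX and −0.46 ± 0.11 (SE, limma adjusted p = 0.00532) in the libraries labelled Nrde2KO with CHX, in which Nrde2 mRNA was not lower. Pvt1 was at −0.02 ± 0.14 (SE, limma adjusted p = 0.94) without CHX and 0.53 ± 0.10 (SE, limma adjusted p = 0.00171) with CHX. Neat1 was at −0.06 ± 0.24 without and 0.44 ± 0.11 with CHX (limma adjusted p = 0.883 and 0.00699). None of the 8 was called in either comparison, where 2.4% and 2.82% of all genes were higher and 2.42% and 1.73% lower.

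In Nrde2d200 cells, compared with the same Nrde2WT libraries as Nrde2KO, Lncenc1 was the only one of the 8 called, against 1.58% of all genes higher and 1.07% lower. It was at 57.5 and 55.9 normalized CPM, below both Nrde2WT libraries (183 and 162) and both Nrde2KO libraries, with a log2 fold change of −1.60 ± 0.10 (SE, limma adjusted p = 1.3e-08). In Nrde2D174R, again against the same controls, it was at 181 and 154 (−0.05 ± 0.10 SE, limma adjusted p = 0.848), groups that overlapped. The labels name no second Nrde2d200 line. Of the 23 other named long noncoding RNAs tested in Nrde2d200, Rian, Meg3 and Mirg, the maternally expressed transcripts of the Dlk1-Dio3 domain, were called lower (−2.35, −2.17 and −1.86) and Lncpint higher (1.5). In Nrde2KO, Lncpint (1.96) and Peg13 (1.19) were called higher.

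Cell-type markers moved with these groups too. The 2-cell-like markers summed to 2.51 to 3.32 normalized CPM in Nrde2WT, 15.7 to 19.9 in Nrde2d200 and 24.2 to 36.3 in Nrde2KO, with 3 and 7 of 7 tested called higher, and 1 of the 8 listed, Tdpoz4, had 0 reads in Nrde2WT. In the second experiment without CHX they summed to 6.97 to 7.01 in Nrde2WT and 102 to 110 in Nrde2KO, again with 7 of 7 called. In Nrde2D174R the sums were 2.10 to 3.70 and none was called. The mESC markers summed to 5907 to 6177 in Nrde2WT, 5420 to 5726 in Nrde2d200 and 4453 to 4808 in Nrde2KO, with Utf1 called lower in Nrde2d200 (−1.41) and, in the second experiment without CHX, in Nrde2KO (−1.10). Gata6 was the only one of 4 tested primitive endoderm markers called in Nrde2KO (1.78) and in its repeat without CHX (2.18). Cdx2 was the only one of 5 tested trophectoderm markers called (1.32 and 1.36), and these markers had median log2 fold changes of −0.34 and −0.12. Trophectoderm markers summed to 103 to 108 normalized CPM in Nrde2WT and 84.2 to 87.7 in Nrde2KO. Primitive endoderm markers summed to 11.5 to 11.9 in Nrde2WT and 17.7 to 19.9 in Nrde2KO. The part of these cell states in the values of Lncenc1 and the other transcripts was not tested.

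None of the 8 was called by limma in Nrde2D174R, where 0.154% of all genes were higher and 0.0604% lower (2623 genes with an unadjusted p below 0.05). The same held for depletion of CCDC174, without CHX, with 0.228% higher and 1.16% lower (3789 genes at unadjusted p below 0.05), and with CHX, with 0.207% higher and 0.704% lower (5478 of 15476 genes). In Ccdc174dTAG without CHX the 8 log2 fold changes ran from −0.23 for Pvt1 to 0.25 for Firre. edgeR and DESeq2 called none of the 8 in these 3 comparisons either.

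The difference between the effects of MtrexKO and Nrde2KO, each against its own controls, was tested directly. The paper reports lower NRDE2 protein after knockout of Mtrex, so MtrexKO was not a loss of MTREX alone. The length of drug exposure also differed between these knockouts. The part of lower NRDE2 in the MtrexKO values was not tested. Neat1 (difference 3.19 ± 0.35 on the log2 scale, limma adjusted p = 1.58e-06) and Tug1 (1.35 ± 0.18, limma adjusted p = 1.48e-05) were called higher in MtrexKO, as were 11.5% of all genes and 43.1% of the long noncoding class, with 7.22% and 4.53% lower. For Pvt1 the difference was 0.75 ± 0.19 (SE, limma adjusted p = 0.00446) and for Kcnq1ot1 0.76 ± 0.37 (SE, limma adjusted p = 0.0996), neither past both thresholds. On CPM as deposited, where the median gene was at −0.42 and 28.9% of calls were higher against 61.3% (49.4% with TMM factors), Tug1 was no longer called (0.89).

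CHX gave the second set of changes, in which more of the 8 were called lower than higher in each of the 4 kinds of cells. The values for Nrde2KO cells rest on the treated libraries labelled Nrde2KO, in which Nrde2 mRNA was not below that of treated Nrde2WT. In Nrde2WT cells Mir17hg, Neat1 and Kcnq1ot1 fell by 2.04, 1.65 and 1.56 on the log2 scale, and none rose past the threshold, whereas 11.2% of all genes were called higher and 2.91% lower. In Ccdc174WT cells Mir17hg and Neat1 fell by 2.37 and 1.73 and Tug1 rose by 1.06, against 12.6% higher and 2.61% lower of all genes. The median of the 8 log2 fold changes was −0.68 and −0.87 in these 2 kinds of cells, while the long noncoding class had medians of 0.41 and 0.53 with 24% and 29.4% called higher and 4.7% and 4.96% lower.

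Mir17hg was at 33.8 and 38.7 normalized CPM in Nrde2WT without CHX and at 7.35 and 10.1 with it, with a log2 fold change of −2.04 ± 0.22 (SE, limma adjusted p = 2.21e-06). In Ccdc174WT it went from 20.4 and 22.1 to 4.66 and 3.27 (−2.37 ± 0.22 SE, limma adjusted p = 4.3e-07). The treated libraries were far below the untreated ones in both, and Mir17hg was among the lowest by fold change, at rank 15107 of 15133 genes in Nrde2WT. It was called lower in Nrde2KO and Ccdc174dTAG cells too, at −2.45 and −2.63.

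Neat1 went from 41.2 and 32.7 normalized CPM to 11.1 and 12.0 in Nrde2WT, with a log2 fold change of −1.65 ± 0.13 (SE, limma adjusted p = 1.14e-07), and from 48.8 and 43.8 to 13.8 and 13.7 in Ccdc174WT (−1.73 ± 0.13 SE, limma adjusted p = 5.98e-08). The transcript with the largest rise among the 8 in MtrexKO was thus lower in all 4 treated wild-type libraries. In Nrde2KO the value was −1.15 and in Ccdc174dTAG −2.23, both called, and the former was −0.97 on CPM as deposited and −0.998 without replicate 2 of untreated Nrde2KO, where it was not called.

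Kcnq1ot1 was at 127 and 137 normalized CPM in Nrde2WT without CHX and at 38.4 and 51.9 with it (log2 fold change −1.56 ± 0.17 SE, limma adjusted p = 2.14e-06). In Ccdc174WT it was at 123 and 94.3 without and 60.8 and 49.4 with CHX, which gave −0.97 ± 0.17 (SE, limma adjusted p = 0.000159), just short of the fold threshold. It was called in Nrde2KO (−1.37) and not in Ccdc174dTAG (−0.84), with no overlap between treated and untreated libraries in any of the 4 kinds of cells.

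Malat1 stayed below the fold threshold in all 4, with log2 fold changes of −0.78 to −0.96. In Nrde2WT it was at 1770.2 and 1630 normalized CPM without CHX and at 843 and 1009 with it (−0.88 ± 0.13 SE, limma adjusted p = 4.05e-05). Lncenc1 was at 276 and 248 in untreated and 151 and 119 in treated Ccdc174WT cells (−0.96 ± 0.11 SE, limma adjusted p = 3.29e-06), and at −0.47 in Nrde2WT, −0.61 in Nrde2KO and −0.80 in Ccdc174dTAG. Firre was at −0.34 to −0.49 in the 4 kinds of cells. None of these 3 transcripts was called in any of the 4 kinds of cells, although treated and untreated libraries did not overlap. The share of all genes with such a separation was not counted.

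Tug1 and Pvt1 were the transcripts with positive values. Tug1 was at 126 and 112 normalized CPM in Ccdc174WT without CHX and at 260 and 236 with it (log2 fold change 1.06 ± 0.08 SE, limma adjusted p = 2.68e-08). In Nrde2WT it was at 128 and 121 without and 208 and 202 with CHX (0.72 ± 0.08 SE, limma adjusted p = 1.58e-06). The call in Ccdc174WT was close to the threshold, and leaving out replicate 2 of the untreated or replicate 1 of the treated libraries gave 0.98 and 0.99. Tug1 was called in Ccdc174dTAG (1.05) and not in Nrde2KO (0.57).

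Pvt1 was at 10.5 and 13.1 normalized CPM in untreated Nrde2KO and at 29.4 and 23.2 after CHX (log2 fold change 1.14 ± 0.13 SE, limma adjusted p = 3.33e-06), the only kind of cells in which it was called. Without replicate 1 of the untreated or of the treated Nrde2KO libraries it was at 0.99 and 0.98 and was not called. In Nrde2WT, Ccdc174WT and Ccdc174dTAG it was at 0.59, 0.58 and 0.56. Of all genes, 10.9% in Nrde2KO and 11.9% in Ccdc174dTAG were called higher and 3.17% and 2.68% lower.

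**Figure D4:**
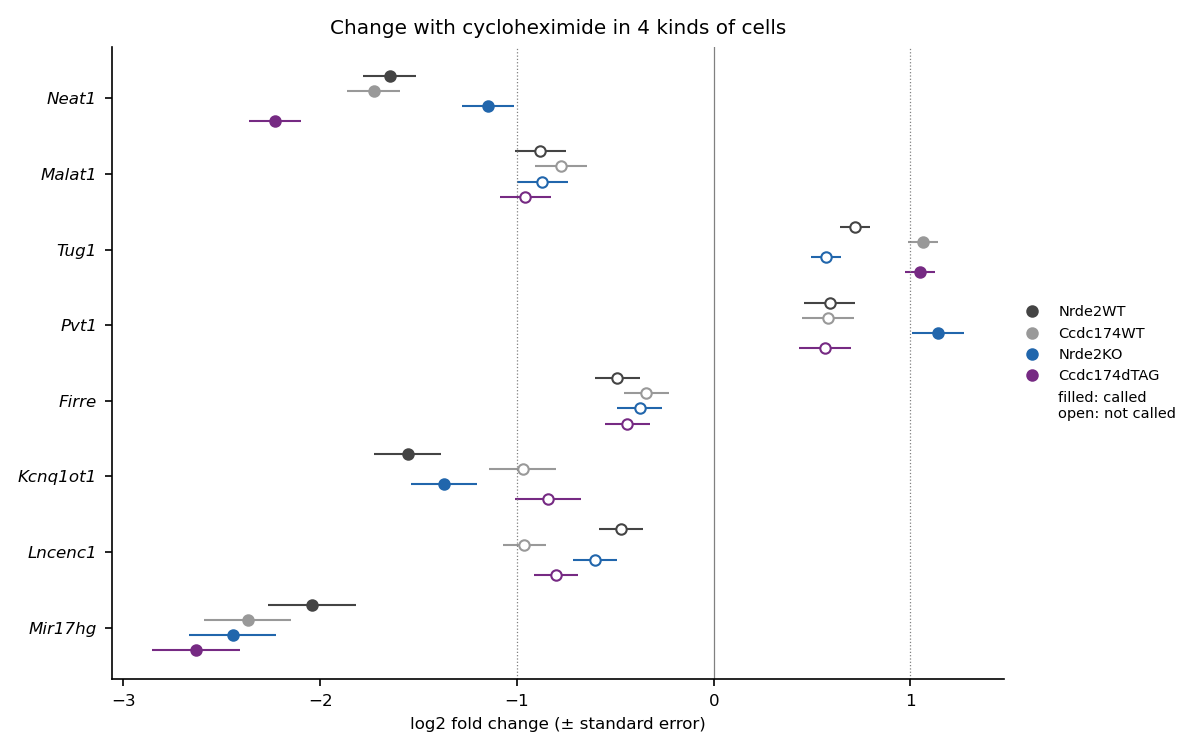
log2 fold change of CHX-treated over untreated libraries (limma, bars are standard errors, filled points are called) for the 8 transcripts in the 4 kinds of cells. Mir17hg lies between −2.04 and −2.63 and Neat1 between −1.15 and −2.23, while Tug1 and Pvt1 lie between 0.56 and 1.14.

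Whether the effect of CHX differed between kinds of cells was tested as a difference of effects. None of the 8 was called by limma for Nrde2KO against Nrde2WT, for Ccdc174dTAG against Ccdc174WT or for Ccdc174WT against Nrde2WT, and edgeR and DESeq2 called none either. Over all 15133 genes limma called 0.172%, 0.0727% and 0% of genes in either direction, with 2246, 1464 and 1199 genes at an unadjusted p below 0.05. For Kcnq1ot1 the difference between Ccdc174WT and Nrde2WT was 0.59 ± 0.24 (SE, limma adjusted p = 0.598), and for Neat1 in Nrde2KO against Nrde2WT it was 0.50 ± 0.19 (SE, limma adjusted p = 0.216). The calls of Tug1, Pvt1 and Kcnq1ot1 in some kinds of cells and not in others were thus not accompanied by a called difference.

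The scale of the libraries moved under CHX too. On CPM as deposited the median gene was at a log2 fold change of 0.20 to 0.24 in the 4 kinds of cells, and the share of calls that were higher went from 79.3% to 89.2% in Nrde2WT, from 82.9% to 91.6% in Ccdc174WT, from 77.4% to 88.1% in Nrde2KO and from 81.6% to 92.2% in Ccdc174dTAG. The mESC markers summed to 5955 to 6113 normalized CPM in untreated and 4001 to 4022 in treated Nrde2WT cells, with Tfcp2l1 and Nanog called lower (−1.33 and −1.15 in Nrde2WT), and all 10 had reads. Primitive endoderm markers summed to 8.2 to 9.69 in untreated and 13.9 to 14.05 in treated Nrde2WT cells and to 4.37 to 4.57 and 9.04 to 9.4 in Ccdc174WT cells. Sox17 was called higher in both (1.28 and 1.05) and Pdgfra in Ccdc174WT (1.404), of 4 tested. Fibroblast markers summed to 5.33 to 8.55 in untreated and 9.68 to 15.1 in treated Nrde2WT cells and to 6.4 to 6.7 and 10.2 to 13.3 in Ccdc174WT cells, with Col3a1 called higher in both (2.03 and 2.49) and Pdgfrb in Ccdc174WT (1.23), of 4 tested. Of 5 trophectoderm markers Eomes was called lower in Nrde2WT (−1.20) and Tfap2c higher in Ccdc174WT (1.63). Of 7 markers of 2-cell-like cells none was called in either. Gm26917 took 1.52% and 2.45% of the reads in untreated and 0.626% and 0.70% in treated Nrde2WT cells. The part of these in the values was not tested.

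Of the other named long noncoding RNAs, 22 were tested under CHX, and 4 rose and 5 fell in Nrde2WT (median −0.34) and 3 rose and 5 fell in Ccdc174WT (median −0.37). Snhg1, a snoRNA host, rose by 1.81 and 1.59 on the log2 scale, from 114 in both untreated to 392 and 408 normalized CPM in treated Nrde2WT libraries. Dancr went from 12.7 and 14.9 to 1.82 and 2.15 in Nrde2WT (−2.65, and −2.65 in Ccdc174WT), Sox2ot rose by 2.01 and 2.55, and Gas5 was at 0.05 and −0.37 and was not called. Tsix was called lower in Nrde2WT (−1.67) and Mir22hg in Ccdc174WT (−2.00).

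Few of the genes tied to the 8 transcripts were called under CHX in Nrde2WT and Ccdc174WT. Nrde2 mRNA, the only exosome or adaptor gene called higher, rose in both (2.14 and 1.95), and Pabpn1, a nuclear poly(A)-binding protein, was called lower in Nrde2WT (−1.08). Of 18 paraspeckle proteins 1 fell, Nudt21, a cleavage factor that promotes the short, polyadenylated Neat1 isoform (−1.40 and −1.74). Of 18 RNase P and speckle proteins 1 rose, Rpp38 (1.2 and 1.24). Of 9 genes of the Kcnq1 domain 1 fell, Cd81 (−1.26 and −1.15), and of 9 genes for miR-17-92 processing none was called in Nrde2WT and Dgcr8, the partner of Drosha, was called lower in Ccdc174WT (−1.13). Of 8 reported miR-17-92 targets 1 fell, Cdkn1a (−2.04 and −3.01).

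Ribo-seq, which sequences RNA fragments protected by ribosomes, gave 3475051 to 5035940 reads in genes per library, fewer than any RNA-seq library. The 8 transcripts had between 9 reads (Mir17hg) and 11639 reads (Malat1) in a library, and reads in a noncoding RNA need not be translating ribosomes. In Nrde2WT the ratio of Ribo-seq CPM to RNA-seq CPM was 0.712 for Neat1, 0.338 for Lncenc1, 0.317 for Malat1, 0.276 for Firre, 0.236 for Pvt1, 0.168 for Tug1, 0.100 for Mir17hg and 0.0642 for Kcnq1ot1. The median ratio was 0.468 over 12028 protein-coding and 0.321 over 273 long noncoding RNA genes, so Neat1 alone lay above the coding median in Nrde2WT, and Kcnq1ot1 was above 0.491% of coding genes. In Nrde2KO the coding median was 0.503, and Neat1 at 1.15, Lncenc1 at 0.527 and Malat1 at 0.526 lay above it. Kcnq1ot1 was the lowest of the 8 there too, at 0.0365, and Mir17hg (0.0646), Firre (0.193), Pvt1 (0.21) and Tug1 (0.222) were below the median.

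Malat1 was the only one of the 8 called in Ribo_Nrde2KO against Ribo_Nrde2WT, where 3.62% of all genes were higher and 2.8% lower. It was at 731 and 618 normalized CPM in Ribo_Nrde2WT and at 1495 and 1508 in Ribo_Nrde2KO, with a log2 fold change of 1.16 ± 0.09 (SE, limma adjusted p = 5.35e-09). Neat1 was at 41.2 and 34.6 in the controls and 54.3 and 59.5 in the knockout (0.59 ± 0.10 SE, limma adjusted p = 0.000158). Firre was at 20.8 and 14.8 against 12.2 and 9.07 (−0.72 ± 0.18 SE, limma adjusted p = 0.00325). On CPM as deposited the median of all genes was 0.15 and 75.5% of calls were higher, against 56.4% with the factors.

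Set against the RNA-seq effect of Nrde2KO in 1 model, Malat1 was at a difference of 0.64 ± 0.17 (SE, limma adjusted p = 0.0209), Lncenc1 at 0.54 ± 0.11 (SE, limma adjusted p = 0.0055) and Kcnq1ot1 at −0.87 ± 0.23 (SE, limma adjusted p = 0.0211). None of the 8 was called by limma, edgeR or DESeq2, against 1.06% of all genes higher and 0.328% lower (4116 of 12788 genes at unadjusted p below 0.05), a split of 76.3% higher that was 90.5% on CPM as deposited. This model held only the RNA-seq libraries of the first Nrde2 experiment. There the mean of Lncenc1 went from 173 to 101 normalized CPM, and in the second experiment without CHX from 149 to 119. Kcnq1ot1 went from 98.7 to 145 in the first and from 132 to 134 in the second. Malat1 rose in both, from 1996 to 2872 and from 1700 to 2223. The difference was not tested with the second experiment.

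**Figure D5:**
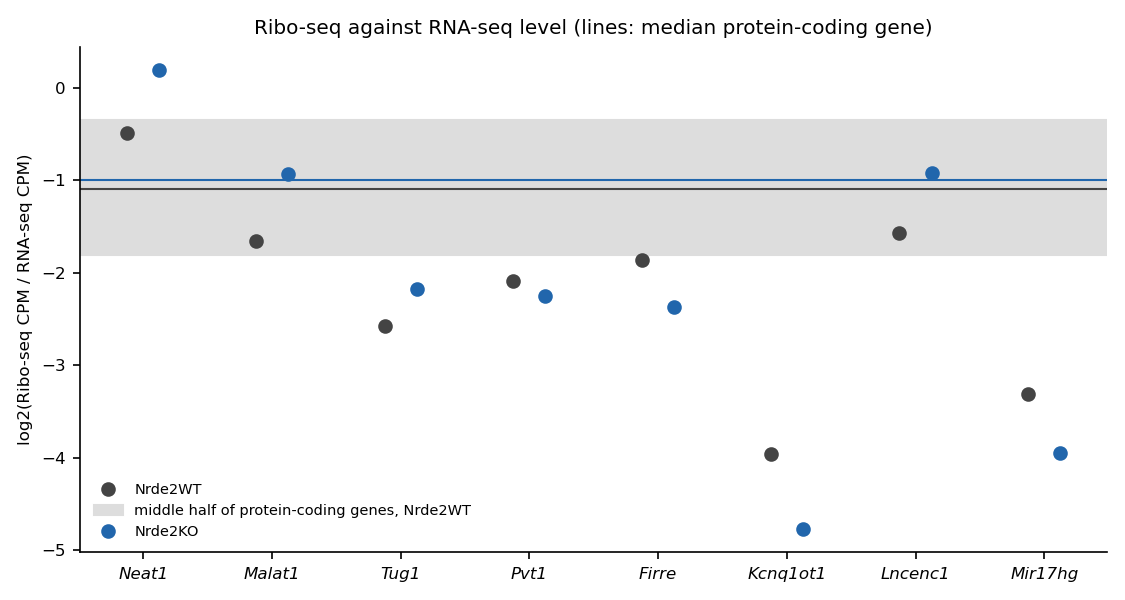
log2 ratio of Ribo-seq CPM to RNA-seq CPM (means of 2 libraries each) for the 8 transcripts in Nrde2WT and Nrde2KO. Lines mark the median protein-coding gene and the grey band its quartiles in Nrde2WT. In Nrde2WT the ratio runs from 0.0642 for Kcnq1ot1 to 0.712 for Neat1, the only one above the coding median of 0.468, and in Nrde2KO from 0.0365 for Kcnq1ot1 to 1.15 for Neat1.

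Finally, the genes whose pattern over the 14 RNA-seq group means was most like that of each transcript were listed by Pearson's r of log2 levels among 13455 genes, as a description with no test, since the groups share lines, treatments and controls. Neat1 was most like Ptp4a2 (0.979), 2900052L18Rik and Ehd2. Mir17hg was most like Arglu1 (0.993), Nr5a2 (0.981) and Cdc42se1. Malat1 was most like Samd10, Gm42986 and Tmem263, and Kcnq1ot1 like Gm36527, Mir294 and D17Wsu92e. Tug1 was most like BC025920, 2810013P06Rik and Fhl4, Pvt1 like Rassf1, 1700086O06Rik and Jun, and Firre like Gm8420, Rtraf and Clip3. Lncenc1 had the loosest matches, in Larp1 (0.871), Sfmbt2 (0.865) and Ywhae (0.855). Among the 8, r was 0.892 for Malat1 and Kcnq1ot1, 0.875 for Neat1 and Malat1, and 0.852 for Tug1 and Pvt1.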

How the data were processed

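The authors deposited 1 table of CPM per gene for RNA-seq and 1 for Ribo-seq. Per the labels and the study's methods, total RNA was depleted of rRNA without poly(A) selection, and 50-nt stranded reads were aligned with STAR (the submitters' notes name 2.7.0a and 2.7.3a) to mm10 and counted per gene and strand with featureCounts, uniquely mapping reads only. Transcripts that hold repeats or have copies may therefore be counted in part. All columns were mapped to samples by name. Cross-linking libraries of the series were not analysed here.

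In the deposited CPM tables, 100% of values of up to 1000 reads were whole multiples of 1 read within 0.1, so whole reads were recovered. Reads in genes were 72.1% to 92.1% of the RNA-seq and 61.4% to 66.8% of the Ribo-seq totals. Of 55335 gene identifiers, 55154 were found in GENCODE M21, from which symbols, positions and classes were taken, and 181 were not.

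The main test was limma 3.58.1 (R 4.3.3) with an intensity trend on log2(normalized CPM + 0.25), a scale that understates changes of low genes, with genes kept at 0.5 CPM or more on average. The 20 libraries without CHX formed 1 fit, the 8 with CHX another, and the 16 libraries of both CHX experiments the fit of the CHX effect, with separate fits for Ribo-seq and for Ribo-seq beside RNA-seq. p-values were adjusted over all genes of a fit. Alternatives were edgeR 4.0.16 quasi-likelihood and DESeq2 1.42.0 on recovered reads, TMM factors, CPM as deposited, 0.1 or 1 added before log2, no filter, at least 1 CPM, only the compared groups, a replicate block, and leaving out each library. edgeR called 2427 genes higher and 1775 lower in MtrexKO, against 2353 and 1617 with limma. For the MtrexKO comparison, counts of 14889 genes were simulated from mean levels over the 20 libraries without CHX, with the same dispersion for every gene. Of 111 genes changed by 1.5 on the log2 scale 92.79% were recovered, and of 89 changed by 3, 98.88%. The spread of the real MtrexKO libraries was not simulated, so recovery at that spread was not tested.

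From each list of related genes, up to 4 called genes with the largest change and up to 2 others with the highest mean were named. Cd81 in MtrexKO, and Morc2a and Gm26917 by level, were named after their values were seen. Some listed genes are not reported here. The 8 transcripts and the lists were chosen with earlier results of these data known.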

Additional observations from a re-analysis of the deposited data

How the results depend on the processing

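The number of the 8 transcripts called was 4 in MtrexKO and 2 on CPM as deposited, 2 for the MtrexKO against the Nrde2KO effect and 1 on CPM as deposited, and 3 for CHX in Ccdc174WT and 5 with TMM factors, where Kcnq1ot1 (−1.02) and Lncenc1 (−1.02) passed as well. Leaving out 1 library at a time gave 3 to 5 called in MtrexKO, 2 to 3 for the difference between MtrexKO and Nrde2KO effects, and 3 to 4 for CHX in each of the 4 kinds of cells. The count stayed at 1 for Nrde2d200 and for Ribo-seq and at 0 for all other comparisons under every alternative run. Mir17hg in MtrexKO (−0.14) was the only value to reverse among those past the adjusted p or in MtrexKO, and it ranged from −0.43 without MtrexKO replicate 1 to 0.17 without replicate 2 when libraries were left out, and reached −0.53 on CPM as deposited. Malat1 in MtrexKO was called at 1.06 without MtrexKO replicate 2, and Kcnq1ot1 was not called without replicate 1 (0.72). In MtrexKO, Tug1 (0.89), Pvt1 (0.95) and Kcnq1ot1 (0.90) were not called on CPM as deposited. Without Ccdc174WT_noCHX replicate 2 or Ccdc174WT_CHX replicate 1, Kcnq1ot1 (−1.16 and −1.12) and Lncenc1 (−1.04 and −1.13) were called under CHX. Malat1 under CHX crossed the threshold in the same way at −1.01 in Nrde2WT without Nrde2WT_CHX replicate 2, at −1.0 in Nrde2KO without Nrde2KO_noCHX replicate 1, and in Ccdc174dTAG at −1.04 without replicate 1 of the untreated or treated libraries and at −1.0 with TMM factors. The causes were not tested. Of 726 alternative values for 51 values of the 8 transcripts, 700 kept their direction and their side of the threshold, 12 lost and 13 gained a call. Of 1434 alternatives for the 93 values not past the adjusted p, 82 changed sign, none with a size above 0.312, and 1 was called (Kcnq1ot1 for MtrexKO against Nrde2KO effects, 1.36 without MtrexKO replicate 2). Same-numbered libraries correlated in their deviations by −0.033 to 0.422, the labels do not tie the numbers to a shared culture, and the replicate block changed no call of the 8 (4 called in MtrexKO with the replicate block).

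Counts over all genes were moved by over 1.5 times by some settings. With 1 added before log2, calls (higher and lower) went from 450 and 295 to 179 and 218 in Nrde2KO, from 358 and 360 to 196 and 278 in the second Nrde2KO experiment without CHX and from 436 and 268 to 230 and 166 with it, from 235 and 159 to 114 and 103 in Nrde2d200, from 34 and 172 to 14 and 122 in Ccdc174dTAG without CHX and from 32 and 109 to 6 and 58 with it. For CHX they went from 1690 and 441 to 1066 and 275 in Nrde2WT, from 1913 and 395 to 1219 and 248 in Ccdc174WT, from 1642 and 480 to 1102 and 284 in Nrde2KO and from 1795 and 405 to 1130 and 260 in Ccdc174dTAG. Without the filter they were 138 and 118 in Nrde2d200, 2 and 3 in Nrde2D174R (main 23 and 9), 7 and 42 in Ccdc174dTAG with CHX, 268 and 293 for Ribo-seq (main 502 and 388) and 0 for Ribo-seq against RNA-seq (main 135 and 42). DESeq2 gave 276 and 287 for Ribo-seq and 45 and 26 in Nrde2D174R. In Nrde2D174R the block gave 54 and 24 and the compared groups alone 42 and 20. For the difference of CHX effects between Nrde2KO and Nrde2WT (main 16 and 10) the settings ran from 6 and 2 to 32 and 33. For Ccdc174dTAG and Ccdc174WT (main 6 and 5) they ran from 0 to 8 and 10, and DESeq2 called 7 and 1 for Ccdc174WT and Nrde2WT (main 0). In MtrexKO (main 2353 and 1617) they were 3981 and 1647 without the filter, 1604 and 3094 on CPM as deposited, and 2002 and 2088 with TMM factors, 48.9% higher. CPM as deposited gave 1049 and 2578 for MtrexKO against Nrde2KO effects (main 1705 and 1075), 834 and 271 for Ribo-seq, 191 and 20 for Ribo-seq against RNA-seq, and for CHX 2264 and 273 in Nrde2WT, 2569 and 237 in Ccdc174WT, 2211 and 298 in Nrde2KO and 2603 and 220 in Ccdc174dTAG. In Ccdc174dTAG without CHX no filter gave 14 and 143 and the compared groups alone 18 and 160, and in Ccdc174dTAG with CHX at least 1 CPM gave 20 and 96. With 1 added, Nrde2D174R had 19 and 4.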

Other observations

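The long noncoding classes of GENCODE differed in their share of calls in MtrexKO, given here as counts with no test. Of transcripts that start from bidirectional promoters 41 of 53 (77.4%) were called higher and 0 lower, and of antisense transcripts 152 of 226 (67.3%) higher and 6 lower. Processed transcripts had 97 of 173 (56.1%), intergenic transcripts 118 of 298 (39.6%) and sense intronic transcripts 13 of 41 (31.7%) called higher. Neat1, Malat1, Pvt1, Lncenc1 and Mir17hg belong to the intergenic class, Tug1 and Kcnq1ot1 to the antisense class and Firre to the processed transcripts. Under CHX in Nrde2WT the order was not the same: intergenic transcripts had 88 of 317 (27.8%) called higher and antisense transcripts 47 of 215 (21.9%), while of 25 sense intronic transcripts 1 was called higher and 6 lower, with a median log2 fold change of −0.46. In Ccdc174WT the same 25 had 2 higher and 6 lower, with a median of −0.75.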
